A study of Mus musculus with 12 samples.

Results

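The histone cluster genes of the mouse genome were followed in mouse tumours named 425-ICC. These are intrahepatic cholangiocarcinomas, cancers that arise from bile ducts within the liver. Members were all genes whose symbol begins with Hist, a cluster number and h (Hist1h2bc, for example), and 68 of the 24421 genes measured met this rule. The measurement was bulk RNA sequencing of 12 tumour samples after 8 days of treatment, with 3 samples in each of 4 groups. Control tumours had received an IgG control antibody. The other groups had received GC alone, dual immune checkpoint blockade (ICB, CTLA-4 blockade with anti-PD1) alone, or GC with dual ICB (Combination). GC is the abbreviation in the labels, and it is taken here as gemcitabine with cisplatin, the usual chemotherapy of this cancer. All 4 groups carry the same tumour model, and the labels give no strain, sex, age or implantation site and do not tie samples to separate animals, so p-values measure only the spread between these samples.

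Histones are the proteins around which DNA is wound: H2A, H2B, H3 and H4 form the core of the nucleosome, and H1 binds the linker DNA between cores. Most genes of the clusters are replication-dependent. They are transcribed in S phase, under the coactivator NPAT, and their mRNAs end in a conserved stem-loop bound by the protein SLBP rather than in a poly(A) tail. A few members also make polyadenylated mRNAs, and these can persist in cells that do not divide. A library that selects poly(A) RNA would therefore miss most histone mRNA, and whether poly(A) RNA was selected is not given in the sources used here.

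The stem-loop itself is printed because it defines the family. It was searched for in the GENCODE M21 transcript models of the 68 genes (GRCm38 build, all 68 matched) and was present in the models of 46. Stem bases are in lower case and the 4 loop bases in capitals, written as DNA from 5′ to 3′.
The form shared by 26 genes of the H1, H2A, H2B and H3 classes: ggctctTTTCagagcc
The form of 7 H4 genes: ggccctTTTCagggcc
The form of 6 H1, H2B and H3 genes, Hist1h1t among them: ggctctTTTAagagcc
The form of Hist1h4i and Hist2h4: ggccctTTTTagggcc
The form of Hist1h4b and Hist1h4j: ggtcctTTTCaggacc
Single genes carried 3 further forms. The stem of H4 genes therefore differed from that of the other classes in its inner base pairs, while the loop was mostly TTTC in both. The models of 23 genes ended within 100 bases after the stem-loop, and the models of the other 23 ran further past it. The 22 models without a stem-loop include that of Hist1h2bc, the member of highest level. Several of the 22 are short, such as 381 bases for Hist1h2bl, and a gene may have a stem-loop that its model does not hold. One of the words AATAAA or ATTAAA, the usual poly(A) signals, lay within the last 50 bases in 17 members, against 50.6% of 58200 protein-coding transcripts. Hist1h2bc was not among the 17.

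**Figure D1:**
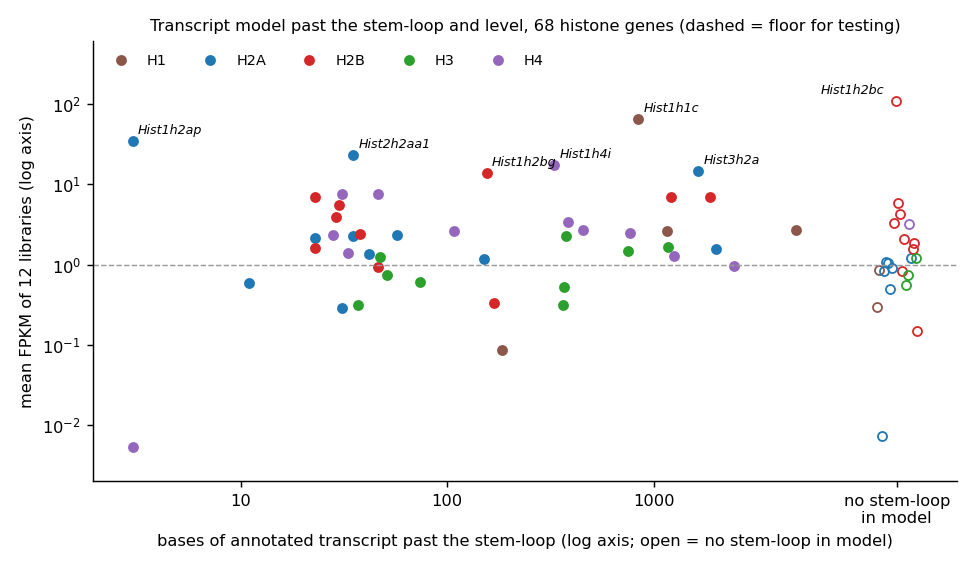
Mean FPKM over the 12 libraries (vertical, log axis) against the bases of annotated transcript that follow the stem-loop (horizontal, log axis), 1 point per gene and 1 colour per class, with open points at the right for the 22 genes whose model holds no stem-loop. Genes of high level occur at short tails (Hist1h2ap), long tails (Hist1h1c) and without a stem-loop in the model (Hist1h2bc).

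The promoters were examined because many H2A and H2B genes start back to back. RefSeq promoter windows (GRCm38.p6, 250 bases before the start to 50 after it) were matched for 61 of the 68 genes. CCAAT, searched on both strands as were all words, was present in 52 of the 61, including every matched H1, H2A, H2B and H3 gene but only 3 of 12 H4 genes. The share among all 32817 promoters was 37.4%. TATAAA was present in 34 of 61 (13.6% of all promoters). The octamer ATTTGCAT, known from H2B promoters, was present in 7 H2A and 6 H2B windows and in none of the other classes (1.74% of all promoters). TTTCGCGC, a form of the E2F site, was present in 9 windows, 5 of H2A and 4 of H2B genes (0.323% of all promoters). Windows of back-to-back genes overlap, so a word between such genes is counted for both. All 4 of these H2B genes stand back to back with an H2A gene among the 5. The counts of the other words hold such repeats too, so windows are not independent regions. No word contains another of these words. Parts of 2 windows are printed because Hist1h2bc and Hist1h2ap, which start at their ends, had the largest differences of the family in GC against Control. Bases of the 4 words, on either strand, are in capitals. The first spans nearly the whole gap between Hist1h2ac and Hist1h2bc, and the second most of the gap between Hist1h2ap and Hist1h2br.
Hist1h2ac, chr13:23683960-23684209, minus strand: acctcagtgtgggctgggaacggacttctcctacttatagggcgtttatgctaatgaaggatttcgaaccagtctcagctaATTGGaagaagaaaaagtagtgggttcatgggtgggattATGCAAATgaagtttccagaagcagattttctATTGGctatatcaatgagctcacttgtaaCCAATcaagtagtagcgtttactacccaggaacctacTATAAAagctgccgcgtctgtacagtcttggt
Hist1h2ap, chr13:21833508-21833725, minus strand: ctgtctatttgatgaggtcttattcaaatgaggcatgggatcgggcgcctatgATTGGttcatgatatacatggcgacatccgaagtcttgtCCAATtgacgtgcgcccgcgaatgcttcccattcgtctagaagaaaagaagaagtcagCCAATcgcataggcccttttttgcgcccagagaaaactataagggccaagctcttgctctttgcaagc
Between Hist1h2ac and Hist1h2bc the CCAAT word occurs on both strands, and the octamer reads ATTTGCAT on the strand of Hist1h2bc. Upstream of Hist1h2ap neither the octamer nor TATAAA was found in these letters.

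Expression is given as FPKM, the authors' deposited values, which count sequenced fragments relative to transcript length and library total, so that levels can be compared between genes. The sequencing depth behind them is unknown. Most members were low: the median of the 68 mean levels was 1.57 FPKM, and 7 genes averaged at least 10 FPKM. Hist1h2bc led with 107, followed by the linker histone Hist1h1c with 64.6, then Hist1h2ap with 34.6, Hist2h2aa1 with 23.2, Hist1h4i with 17.3, Hist3h2a with 14.5 and Hist1h2bg with 13.6 FPKM. The first 6 of these held between 53.4% and 70.1% of all histone cluster FPKM in a library. Of these 6, Hist1h1c, Hist1h2bc and Hist3h2a are known to make polyadenylated mRNAs. The 46 members that averaged 1 FPKM or more were tested (3 H1, 12 H2A, 15 H2B, 5 H3 and 11 H4). The other 22, with means from 0.00533 to 0.970 FPKM and no single value above 2.65, were not tested. Just under the floor lay Hist4h4 (0.970 FPKM) and Hist1h2bm (0.923), and just over it Hist1h2ai (1.05) and Hist1h2ah (1.08). H3 was the class least seen, with 7 of its 12 genes untested.

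Genes known from the testis were near 0, with 1 exception. Hist1h2aa was listed at 0 in 11 of 12 libraries and the linker histone Hist1h1t in 6 of 12. Hist1h2ba, the testis H2B, had 1.95 to 2.80 FPKM in the Control libraries and 2.39 to 3.16 in ICB, against 2.61 to 4.53 in GC and 3.20 to 4.66 in Combination. Of the 50-base words in its model, 31.6% also occur in the model of Hist1h2bc, so reads of the 2 genes cannot all be told apart.

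Summed over the 68 genes, histone cluster FPKM was 386, 320 and 335 in the Control libraries, 420, 643 and 580 in GC, 262, 364 and 365 in ICB, and 457, 393 and 292 in Combination. The mean was 347 ± 34.1 in Control, 548 ± 115 in GC, 330 ± 59.2 in ICB and 380 ± 83.2 in Combination (SD, n = 3). Every GC library thus lay above every Control and ICB library, and Combination overlapped all other groups. The separation of GC depended on Hist1h2bc and Hist1h2ap. With both genes left out of the sum, GC replicate 1 (255 FPKM) fell below Control replicate 1 (321 FPKM) and ICB replicate 2 (270 FPKM). GC replicates 2 and 3 (328 and 356 FPKM) still exceeded every library of those other groups. The H2B and H2A sums differed most. The H2B sum was 191 to 257 FPKM in GC and 153 to 266 in Combination, against 94.0 to 134 in Control and 114 to 166 in ICB. The H2A sum was 109 to 239 FPKM in GC and 56.1 to 83.9 across the other 9 libraries. Hist1h2ap alone made up at least 45.5 FPKM of the H2A sum in each GC library and at most 31.3 FPKM elsewhere. The H1 sum was highest in Control replicate 1 (141 FPKM). In bulk tumours, fewer cells of a type and less RNA per cell cannot be told apart.

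**Figure D2:**
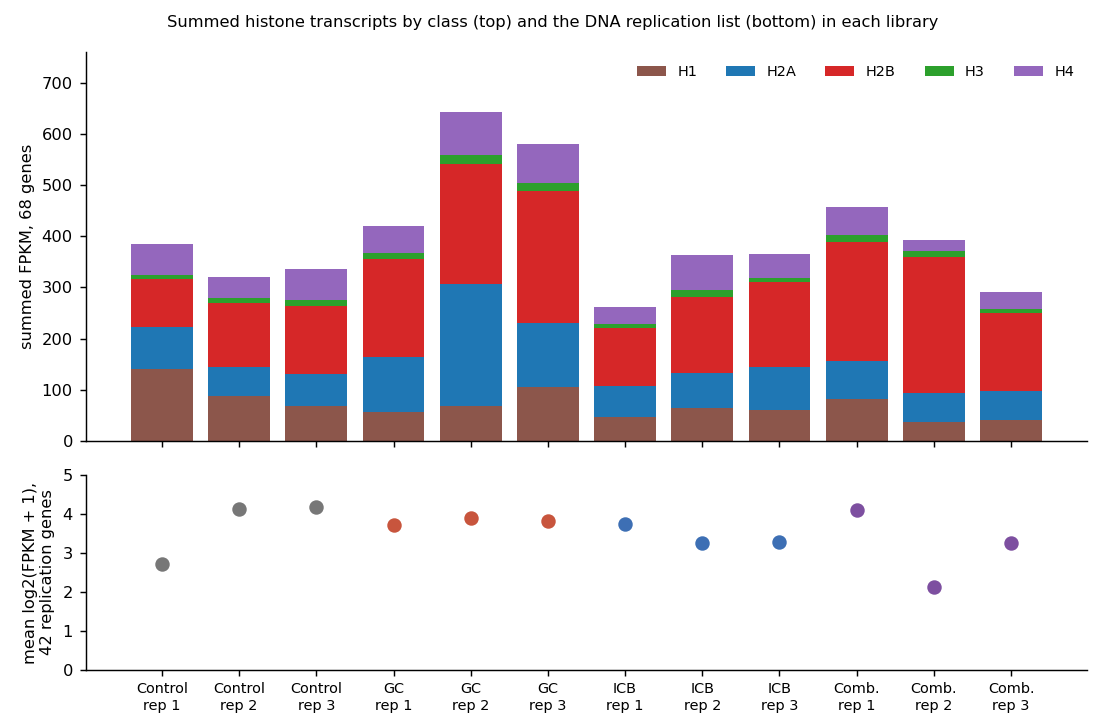
Top, FPKM summed over the 68 genes in each of the 12 libraries, stacked by class (bars start at 0). Bottom, the mean log2(FPKM + 1) of 42 DNA replication genes in the same libraries; Control replicate 1 (2.73) and Combination replicate 2 (2.13) are the lowest, and their summed histone FPKM (386 and 393) is not.

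These libraries differed in content, in part within the groups and in part along them, and the values bear on what follows. The mean log2(FPKM + 1) of 42 DNA replication genes was 2.73 in Control replicate 1 and 2.13 in Combination replicate 2, and 3.27 to 4.19 in the other 10. Mki67, a marker of dividing cells, was 1.84 FPKM in Control replicate 1 against 16.5 and 20.5 in the other Control libraries. The summed FPKM of 19 hepatocyte genes was 10.1 to 107 in Control, 442 to 2654 in ICB, 797 to 7604 in GC and 4639 to 104665 in Combination. It was highest in Combination replicate 2. Every Control library lay below every treated library in this sum, so hepatocyte content and treatment cannot be told apart in comparisons with Control. The same held for 8 T cell genes, which summed to 1.08 to 2.10 FPKM in Control and at least 3.95 in treated libraries. In GC, 10 fibroblast genes summed to 2578 to 4612 FPKM, against 333 to 2421 in the other groups. Summed FPKM of 10 macrophage genes was 7362 to 8127 in GC and 421 to 7316 in the other groups. These contents cannot be told apart from GC alone either. Combination replicate 1 carried intestinal transcripts (Fabp2 at 1779 FPKM), and Control replicate 2 and GC replicate 2 carried skeletal muscle transcripts (Acta1 at 348 and 937 FPKM). Rn45s, the ribosomal RNA precursor, which has no poly(A) tail, was 26773 and 8744 FPKM in ICB replicates 2 and 3 and 957 to 3901 elsewhere. Of 11 biliary tumour genes, 4 were listed at 0 in at least 1 library, Krt19 and Epcam each in 2. The part of these contents in the histone results was not tested beyond the values given beside them.

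In GC against Control, no histone cluster gene passed the test, where 0.00783% of the 12765 genes tested were called (limma on log2(FPKM + 1), Benjamini-Hochberg adjusted p under 0.05). The values were mostly higher: 41 of the 46 differences were above 0, a direction seen in 58.1% of all tested genes. The median was 0.40 on the log2(FPKM + 1) scale against 0.09 over all genes. All 12 H2A, 15 H2B and 5 H3 genes and 9 of 11 H4 genes had differences above 0, and all 3 H1 genes had differences below 0. These counts depended on the scaling: under quantile normalization 30 of 46 differences were above 0, including 6 of 12 H2A. In 16 genes every GC library lay above every Control library (18.6% of all genes), and in 0 genes below (9.29%). At an unadjusted p under 0.05, 3 genes were higher, against 8.2% of all genes, and 0 lower, against 1.66%.

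Hist1h2bc, an H2B gene on chromosome 13 (23684199 to 23692908, plus strand, GRCm38), had the smallest p of the family in GC against Control. Its level was 46.2, 74.5 and 63.9 FPKM in Control, 119, 159 and 169 in GC, 66.2, 77.5 and 103 in ICB, and 144, 176 and 91.1 in Combination. All GC and all Combination libraries lay above all Control libraries. The difference of GC from Control was 1.27 on the log2 scale (SE 0.31, adjusted p 0.177), and that of Combination from Control was 1.12 (SE 0.31, adjusted p 0.0698). ICB differed from Control by 0.41 (SE 0.31, adjusted p 1.00).

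When the 6 libraries of GC and Combination were compared with the 6 of Control and ICB, Hist1h2bc rose by 0.99 on the log2 scale (SE 0.22, adjusted p 0.0359). It was the 1 histone cluster gene called, where 3.01% of all genes were called higher and 0.353% lower. The 2 sets of libraries overlapped in 1 place, Combination replicate 3 (91.1 FPKM) lying under ICB replicate 3 (103 FPKM). The call depended on the setting: over 26 alternative settings it was made in 12, the difference ranged from 0.49 to 1.13 and the adjusted p from 0.00632 to 0.186. It was lost when any one Control, GC or ICB library was left out, under median-of-ratios scaling, and with the hepatocyte gene level as a covariate. The interaction of GC and ICB for this gene was -0.57 (SE 0.44, adjusted p 0.708).

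Other H2B genes had differences of the same sign. In the pooled comparison 32 of 46 differences were above 0, against 45.8% of all genes, and 23 of 46 under quantile normalization. For H2B the count was 12 of 15 under either scaling, with a median of 0.43, and 8 of the 15 were higher at an unadjusted p under 0.05, against 13.4% of all genes. Hist1h2bh was 5.32, 5.28 and 5.96 FPKM in Control, 7.47, 7.15 and 9.51 in GC, 4.74, 5.22 and 5.28 in ICB, and 10.8, 10.2 and 6.39 in Combination. Every library with GC thus lay above every library without it, with a difference of 0.59 (SE 0.16, adjusted p 0.0709). Hist1h2bf was 1.52, 3.14 and 2.81 FPKM in Control, 4.16, 3.93 and 5.19 in GC, 2.03, 3.12 and 2.80 in ICB, and 5.602, 8.86 and 3.30 in Combination. Its pooled difference was 0.76 (SE 0.23, adjusted p 0.0915), again with no overlap. Hist1h2bg was 13.5 to 18.3 FPKM in GC and 11.9 to 20.6 in Combination, against 10.3 to 12.1 in Control and 9.28 to 11.6 in ICB (0.51, SE 0.17, adjusted p 0.121). Its lowest library with GC (11.9 FPKM) lay just under the highest Control library (12.1 FPKM).

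In 5 genes every GC library lay above every Control library and every Combination library above every ICB library, against 4.39% of all genes: the H2B genes Hist1h2be, Hist1h2bf, Hist1h2bg and Hist1h2bh, and the H3 gene Hist2h3c2. The models of these genes are partly the same letters. Of the 18 other H2B genes, 13 share at least 10% of their 50-base words with Hist1h2bc, up to 56.9% for Hist1h2bl. The share was 45.0% for Hist1h2bg, 44.2% for Hist1h2bf, 10.9% for Hist1h2bh and 4.43% for Hist1h2be, which also overlaps Hist1h1e. How the authors assigned reads that fit several genes is not given in the sources used here, and the part of such reads in the H2B values was not tested.

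**Figure D3:**
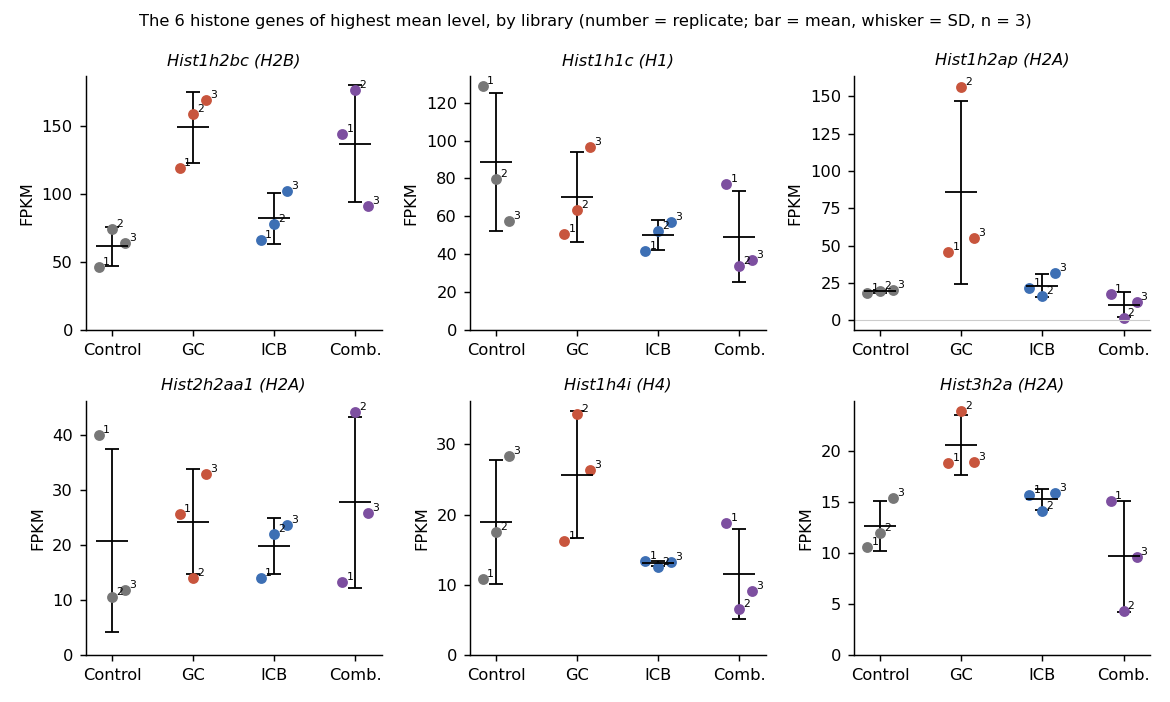
FPKM of the 6 members of highest mean level in each library (points, numbered by replicate; horizontal bar, group mean; whisker, SD, n = 3; the vertical scale differs between panels). Hist1h2bc lies at 119 to 169 FPKM in GC and 46.2 to 74.5 in Control, and Hist1h2ap reaches 156 in GC replicate 2 and 1.23 in Combination replicate 2.

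Among H2A genes the highest member was Hist1h2ap, a canonical H2A. It was 18.1, 19.6 and 20.4 FPKM in Control, 45.5, 156 and 55.2 in GC, 21.5, 16.2 and 31.3 in ICB, and 17.7, 1.23 and 12.5 in Combination. GC lay above every other group, and Combination lay below Control. The differences were 1.87 for GC against Control (SE 0.69, adjusted p 0.390), -1.30 for Combination against Control (SE 0.69, adjusted p 0.246) and -3.17 for Combination against GC (SE 0.69, adjusted p 0.0729). The interaction, which asks whether GC acted differently with ICB than without it, was -3.36 (SE 0.98, adjusted p 0.429), so no difference of effect passed the test. With the hepatocyte gene level as a covariate, Hist1h2ap was called in GC against Control together with Hist3h2a, where 4.97% of all genes were. The near-identical copy Hist1h2ao held 0.0397 to 1.01 FPKM, so the sum of the pair followed Hist1h2ap. Of the 50-base words of Hist1h2ap, 93.1% occur in another member and 55.2% outside the family. The part of reads from other genes in its level was not tested.

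Hist2h2aa1 is another H2A gene and has a near-identical copy, Hist2h2aa2. Hist2h2aa1 was 39.9, 10.6 and 11.8 FPKM in Control, 25.7, 14.0 and 32.98 in GC, 14.0, 22.0 and 23.6 in ICB, and 13.3, 44.2 and 25.8 in Combination. Hist2h2aa2 was 13.04 FPKM in GC replicate 2 and 12.4 in Combination replicate 1 and at most 0.681 in the other 10 libraries. The sum of the copies in those 2 libraries was 27.0 and 25.7 FPKM, close to their groups' other libraries except Combination replicate 2 (44.2 FPKM). Among the 45 tested genes with no library at 0, Hist2h2aa2 had the widest range, 560-fold between its highest and lowest library. How reads were assigned between the copies was not tested, and values of single copies are uncertain. Outside the family occur 89.4% of the 50-base words of Hist2h2aa1 and 100% of those of Hist2h2aa2, so the sum is uncertain too.

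Hist3h2a, an H2A gene of the small chromosome 11 cluster, was 10.6, 11.99 and 15.4 FPKM in Control, 18.8, 24.0 and 18.9 in GC, 15.7, 14.1 and 15.9 in ICB, and 15.1, 4.27 and 9.60 in Combination. All GC libraries lay above all libraries of the other groups. The difference was 0.67 for GC against Control (SE 0.35, adjusted p 0.565) and -1.15 for Combination against GC (SE 0.35, adjusted p 0.208). The latter was -0.71 without Combination replicate 2 and -1.52 without Combination replicate 1. The gene overlaps Trim17, and 31.5% of its 50-base words occur outside the family. The remaining polyadenylated members were low, Hist2h2be at 0.909 to 2.80 FPKM and Hist3h2ba at 0 to 1.13 FPKM.

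The 3 tested H1 genes had lower values than Control in every treated group, with medians of -0.42 in GC, -0.56 in ICB and -0.97 in Combination on the log2 scale. None passed the test. Hist1h1c was 129, 79.8 and 57.7 FPKM in Control, 50.8, 63.1 and 96.4 in GC, 41.5, 52.2 and 56.8 in ICB, and 76.9, 33.9 and 37.0 in Combination. The ICB libraries lay below all Control libraries by a narrow margin (56.8 against 57.7 FPKM), with a difference of -0.75 (SE 0.39, adjusted p 1.00). Without Control replicate 1, whose Hist1h1c was the highest of all, that difference was -0.44. Hist1h1d was 3.90, 3.19 and 4.23 FPKM in Control, 2.00, 2.03 and 3.96 in GC, 2.07, 5.16 and 1.73 in ICB, and 1.43, 1.22 and 1.45 in Combination. Combination lay below all other libraries, with a difference from Control of -1.01 (SE 0.33, adjusted p 0.102). Hist1h1e ran from 3.16 to 5.79 FPKM in Control and from 1.40 to 1.66 in Combination (-0.97, SE 0.33, adjusted p 0.110).

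H3 genes were low throughout. Hist2h3c2 was 0.777, 1.39 and 1.16 FPKM in Control, 1.97, 4.09 and 2.82 in GC, 1.06, 0.938 and 1.15 in ICB, and 2.46, 7.80 and 1.77 in Combination. Each library with GC lay above each library without it, and the pooled difference was 0.99 (SE 0.28, adjusted p 0.0815). Its copy Hist2h3c1 differed from it by at most 0.247 FPKM in 11 libraries but was 0.0133 FPKM against 7.80 in Combination replicate 2. Of the 50-base words of Hist2h3c2, 63.5% occur outside the family. Summing the FPKM of such copies before the fit was an alternative added after the data were seen. With it, 2 members were called in the pooled comparison in place of 1, where 3.37% of all genes were.

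Of the H4 genes, Hist1h4i was 10.8, 17.5 and 28.4 FPKM in Control, 16.3, 34.3 and 26.4 in GC, 13.3, 12.6 and 13.2 in ICB, and 18.8, 6.53 and 9.17 in Combination. Control and GC overlapped, and the difference was 0.46 (SE 0.41, adjusted p 0.791). Hist1h4h was 11.2, 5.15 and 3.12 FPKM in Control, 10.03, 10.5 and 11.03 in GC, 3.51, 8.49 and 8.01 in ICB, and 9.69, 4.12 and 6.40 in Combination (0.77 for GC against Control, SE 0.42, adjusted p 0.601). The 3 GC values were close together while Control spanned them.

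**Figure D4:**
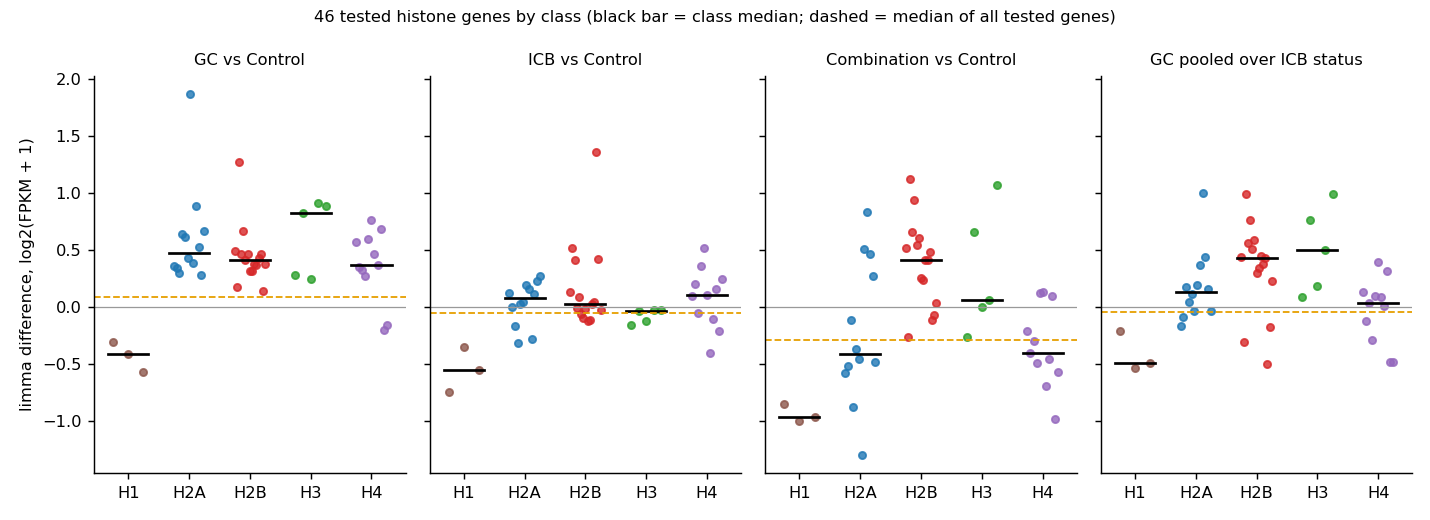
Differences on the log2(FPKM + 1) scale of the 46 tested genes by class in 4 comparisons (points, genes; black bars, class medians; dashed line, median of all 12765 tested genes). In Combination against Control the H2B median is 0.41 and the H2A, H4 and H1 medians are -0.42, -0.41 and -0.97.

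In ICB against Control, 23 of 46 differences were above 0 (40.9% of all genes) and 23 below, the median was 0.01 against -0.06 over all genes, and no member passed the test, as no gene did (0% called, limma). These counts depended on the scaling, with 32 of 46 above 0 under median-of-ratios scaling and 16 under quantile normalization, and the median was 0.16 without ICB replicate 1 and -0.09 without ICB replicate 2. At an unadjusted p under 0.05 there were 0 members, against 1.75% of all genes. No member lay above all Control libraries in every ICB library (4.65% of all genes), and 2 lay below, Hist1h1c and Hist1h2bh (4.67%). ICB replicate 2 was the highest library for 9 of the 46 genes, 5 of them H4, and it was the library of highest Rn45s. The matching count over all genes was not made.

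In Combination against Control the classes had medians of different sign. No member passed the test, where 3.95% of all genes did (limma), and 22 of 46 differences were above 0 (33% of all genes). H2B differences were above 0 in 12 of 15 genes, with a median of 0.41, while 8 of 12 H2A, 8 of 11 H4 and all 3 H1 differences were below 0. The median over all genes was -0.29. Median-of-ratios scaling moved the median of all genes from -0.29 to 0.01, and the histone median from -0.04 to 0.09; H2B then had 13 of 15 differences above 0 and H2A still 8 of 12 below. At an unadjusted p under 0.05, 6 members were higher (5 H2B and Hist2h3c2), against 11.7% of all genes, and 5 lower (3 H1, Hist1h2ag and Hist1h4n), against 14.6%. No overlap was seen in 7 higher members (9.74% of all genes) and 5 lower ones (13.2%).

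Combination replicate 2 was often the extreme library. It was the lowest library for 21 of the 46 genes, including 9 of 12 H2A, and the highest for 7, including 5 H2B. Combination replicate 1 was likewise the highest library for 5 H2B genes. The median H2A level of replicate 2 was 0.113 FPKM. Genes in general were lower in replicate 2: its factor under median-of-ratios scaling was 0.539, against 0.836 to 1.19 in the other libraries. The matching counts of extreme libraries over all genes were not made, so these counts are not particular to histone genes. Replicate 2 was also the library of lowest replication gene level and of highest hepatocyte level given above. Its part in the class medians was not tested. In Combination replicate 3 some H2A values were below all Control libraries, such as 0.277 FPKM of Hist1h2ai against 0.829 to 1.15, while replicate 1 had 1.17. Others were not, such as 2.51 FPKM of Hist2h2ac in replicate 3 against 1.39 to 2.95 in Control. The H2A sum of replicate 3 was 56.3 FPKM, against 56.2 to 82.2 in Control. The 4 H2A differences above 0 in Combination against Control were those of Hist2h2aa1, Hist2h2aa2, Hist2h2ab and Hist2h2ac, on chromosome 3. Without Combination replicate 1, 7 members were called in Combination against Control, where 24.8% of all genes were, and 12 in Combination against GC, where 23.6% were. Without Combination replicate 2 or 3, none was called in Combination against Control, where 2.09% and 2.6% of all genes were.

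Against GC alone, Combination gave 10 of 46 differences above 0 (23.8% of all genes) and 36 below, a median of -0.43 against -0.36 over all genes, and no call (0.666% of all genes, limma). Under median-of-ratios scaling 17 were above 0 with a median of -0.20, and under quantile normalization 18 with a median of -0.27; H2B had 11 of 15 above 0 under both. At an unadjusted p under 0.05, 0 members were higher (6.1% of all genes) and 11 lower (10.4%), of which 7 were H2A and 4 H4. In 13 members all Combination libraries lay below all GC libraries (14.2% of all genes). Against ICB alone, Combination gave 22 differences above 0 (35.3% of all genes) and 24 below and no call (2.24%). In 6 members every Combination library lay above every ICB library (9.47%), and in 3 below (10.1%). Further, 6 members were higher at an unadjusted p under 0.05 (10.8%), 5 H2B and Hist2h3c2, and Hist1h4d was lower (9.67%). The interaction of GC and ICB had no call among members (0.0157% of all genes) and a median of -0.48 against -0.26. At an unadjusted p under 0.05 it was above 0 in 0 members (2.79% of all genes) and below 0 in 3 (5.3%), Hist1h2ap, Hist1h4d and Hist3h2a. Over any of the 4 groups no member was called (1.83% of all genes), and 7 had an unadjusted p under 0.05 (17.1%).

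The head-to-head gene pairs set an H2A beside an H2B within a single promoter. There were 13 such pairs, with 172 to 305 bases between the genes, and both genes were tested in 8. The H2B gene had the higher mean FPKM in 10 of 13 pairs. In GC against Control the H2B difference exceeded that of its H2A partner in 4 of 8 pairs, and in Combination against Control in 7 of 8. Hist1h2bc and Hist1h2ac, whose starts lie 250 bases apart in the window printed above, differed from Control by 1.12 and -0.58 in Combination and by 1.27 and 0.36 in GC. Hist1h2ac was 1.47, 1.10 and 1.91 FPKM in Control, 1.49, 2.49 and 2.66 in GC, 1.23, 2.37 and 1.56 in ICB, and 1.72, 0.0502 and 0.576 in Combination. Hist1h2bf and Hist1h2ad differed from Control by 0.94 and -0.52 in Combination. The exception was Hist2h2ac and Hist2h2be on chromosome 3, at 0.27 for the H2A and 0.03 for the H2B gene. The difference within pairs was not tested, and several of these H2B genes share words with Hist1h2bc.

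**Figure D5:**
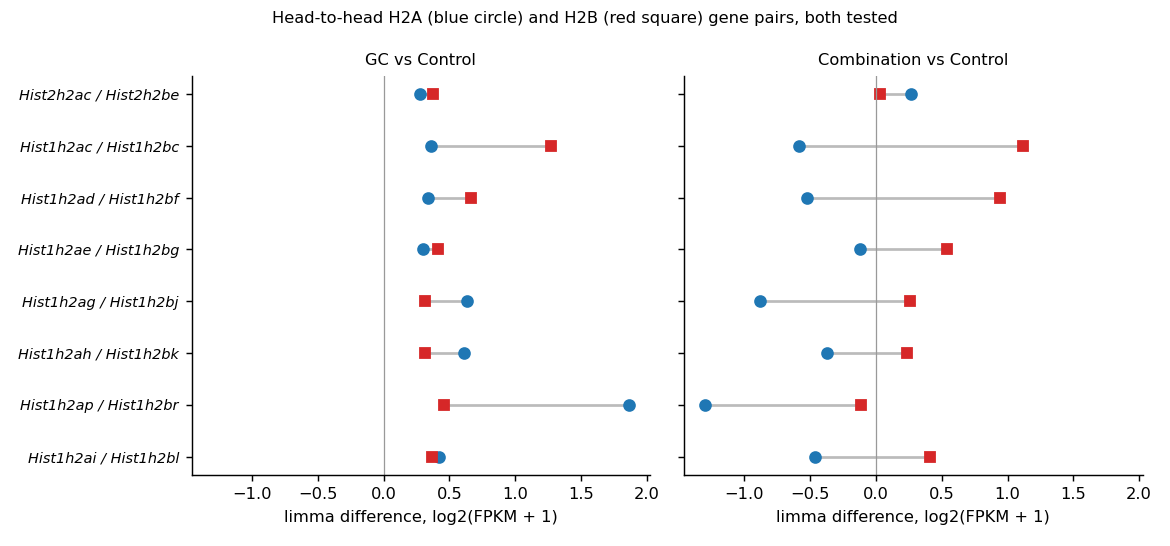
Differences from Control on the log2(FPKM + 1) scale for the 8 head-to-head pairs with both genes tested, for GC (left) and Combination (right); blue circles are H2A genes, red squares H2B genes, and grey lines join a pair. In Combination 7 of the 8 squares lie to the right of their circles, and in GC 4 of 8.

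Levels within the family were spread over 5 genomic blocks (GRCm38). Chromosome 13 holds 54 members in 2 blocks, 23 between 21715763 and 22043676 and 31 between 23531050 and 23934851. Chromosome 3 holds 10 between 96219865 and 96270132, chromosome 11 holds 3 between 58948920 and 58956830, and chromosome 6 holds Hist4h4. The chromosome 13 members summed to 288 to 322 FPKM in Control, 220 to 314 in ICB, 360 to 569 in GC and 244 to 402 in Combination. All 10 chromosome 3 members were tested, and their sum was 19.5 to 51.8 FPKM in Control, 24.0 to 37.2 in ICB, 39.9 to 48.9 in GC and 37.6 to 60.7 in Combination.

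Genes that make and handle histone mRNA gave few calls. Of 22 genes of histone mRNA transcription and processing, 21 were tested and 0 were called in any comparison. Slbp, the stem-loop binding protein, was 14.1, 26.9 and 27.3 FPKM in Control, 26.6, 29.6 and 23.6 in GC, 23.2, 17.9 and 20.3 in ICB, and 28.1, 7.76 and 14.9 in Combination. Npat, the S-phase coactivator of histone genes, was 3.14, 3.92 and 3.73 FPKM in Control, 2.58, 2.39 and 2.13 in GC, 3.46, 2.73 and 3.05 in ICB, and 2.02, 0.755 and 2.40 in Combination. Its libraries with GC thus lay below all Control libraries, with a pooled difference of -0.54 (SE 0.19, adjusted p 0.140). None of 42 DNA replication genes, 23 mitosis genes and 22 histone chaperones was called in any comparison (limma), where 0% to 3.95% of all genes were. At an unadjusted p under 0.05, Combination against Control had 2 of the processing genes, 5 chaperones, 3 replication genes and 0 mitosis genes lower, against 14.6% of all genes. In GC against Control, 20 of 23 mitosis genes and 27 of 42 replication genes had differences above 0, against 58.1% of all genes. Their medians were 0.24 and 0.17, against 0.09 over all genes. Of the processing genes 13 of 21 were above 0, and of the chaperones 6 of 22. Pcna, the replication clamp, was 59.5 to 131 FPKM in Control and 88.1 to 95.2 in GC (-0.03, SE 0.44, adjusted p 0.996).

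Replacement histones are mostly made from polyadenylated mRNAs and can be made outside S phase. Of 11 tested, 1 was called in Combination against Control, where 3.95% of all genes were. H1f0, a linker histone of resting cells, was 298, 183 and 221 FPKM in Control, 112, 84.7 and 131 in GC, 147, 122 and 122 in ICB, and 133, 72.4 and 88.5 in Combination. It fell in Combination against Control by 1.26 on the log2 scale (SE 0.30, adjusted p 0.0391), and all treated libraries lay below all Control libraries. H2afz, a variant H2A, was 177 to 648 FPKM in Control and 390 to 412 in GC, and H3f3b, which encodes the H3.3 variant, was 426 to 570 in Control and 87.1 to 365 in Combination (-1.34, SE 0.42, adjusted p 0.0928). H2afx, whose protein marks DNA breaks, was 17.6 to 49.6 FPKM in Control and 41.6 to 61.8 in GC (0.61, SE 0.53, adjusted p 0.778).

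Of 17 tested p53 target genes, which respond to DNA damage, 0 were called in GC against Control (limma, 0.00783% of all genes). There 5 were higher at an unadjusted p under 0.05 (8.2% of all genes) and 0 lower (1.66%). In Combination against Control 2 were called, Fas and Perp, where 3.95% of all genes were. That list was mixed: 7 of 17 differences were above 0 (33% of all genes), with a median of -0.10 against -0.29 over all genes. At an unadjusted p under 0.05, 5 were higher (11.7%) and 2 lower (14.6%). Fas, a death receptor, was 0.866 to 1.84 FPKM in Control, 2.18 to 2.57 in ICB, 3.79 to 5.90 in GC and 5.85 to 19.4 in Combination. It rose in Combination by 2.15 (SE 0.37, adjusted p 0.00834), and Perp, a membrane protein of epithelia, by 2.50 (SE 0.40, adjusted p 0.00536). Both were highest in Combination replicate 2, the library of highest hepatocyte level. Cdkn1a, the cell cycle inhibitor p21, was 110, 37.9 and 34.7 FPKM in Control and 71.8, 100 and 83.5 in GC (0.67, SE 0.39, adjusted p 0.633), with Control replicate 1 above all GC libraries.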

How the data were processed

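Libraries of 12 tumour samples were made from total RNA with a stranded Qiagen kit, per the labels' protocols. Groups and replicate numbers come from the sample titles. FPKM values were used as deposited by the authors, 1 per gene and library. The submitters' processing notes name FastQC, cutadapt, HISAT2, SAMtools, HTSeq and mm10, without versions or the step that made FPKM. Low values did not fall on whole-read steps, so the depth is unknown and no count test was run.

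The 12765 genes averaging 1 FPKM or more were fitted as log2(FPKM + 1) with limma 3.58.1 in R 4.3.3 (4 group means, 8 residual degrees of freedom, intensity trend, two-sided tests, Benjamini-Hochberg adjusted p under 0.05 over all of them). Fold changes on this scale understate those of low genes. The script was tested on simulated data. Sums, counts and sequence searches used Python 3.11.15 with GENCODE M21 models and RefSeq promoters. FPKM of several members with the same letters depend on how reads were assigned, and antisense overlaps on strand use, neither of which is stated.

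The members and gene lists were chosen with earlier results of these data known. Genes named were every called member, the 2 of highest mean per class, up to 3 of smallest p whose groups do not overlap per comparison with Control and in the pooled one, the polyadenylated and testis members, and a fixed set outside the family; other members are named as examples of counts, after their values were seen. Comparisons with Control share the Control libraries. Alternatives were another pseudocount, filter, scaling or fit, covariates, and libraries left out.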

Additional observations from a re-analysis of the deposited data

How the results depend on the processing

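The difference of Hist1h2bc was above 0 under every alternative run, while its call was not stable, as given above. Counts of members called moved with the weighting of libraries: with array weights, whose estimation did not converge, 4 were called in GC against Control (11.4% of all genes), 15 in Combination against Control (52.5%), 35 in Combination against GC (54.7%), 18 in Combination against ICB (59.1%), 13 in the pooled comparison (35.1%), 15 in the interaction (31.6%) and 36 over any of the 4 groups (78.7%). With the hepatocyte level as a covariate the counts were 2 in GC against Control (4.97% of all genes), 2 in the interaction (3.41%) and 1 over any of the 4 groups (3.59%), and the pooled count of 1 (3.46%) was Hist2h2aa2 instead of Hist1h2bc. GC against Control gave 1 call without the Combination group, and 1 without Combination replicates 1 and 2 (2.33% of all genes in both). The pooled count was 0 under median-of-ratios scaling (2.68% of all genes) and without the muscle-rich pair, Control and GC replicate 2 (0.885%). It was 3 with the DNA replication level as a covariate (9.8% of all genes) and 2 with copies summed (3.37%). The settings that leave out the Combination group or 2 libraries of 1 group, the replication covariate and the summed copies were chosen after seeing the data; where 1 library remained in a group, its spread was taken from the others. The median of Combination against Control was -0.48 over members of at least 10 FPKM and 0.42 with the hepatocyte covariate, and that of the interaction was -0.09 under quantile normalization and -0.08 without ICB replicates 2 and 3. Leaving out 1 library at a time gave 0 calls in GC against Control (0% to 1.43% of all genes) and in ICB against Control (0%). It gave 0 to 7 in Combination against Control (1.72% to 24.8%) and 0 to 12 in Combination against GC (0.188% to 23.6%). Combination against ICB had 0 to 3 (0.846% to 16.1%) and the pooled comparison 0 to 3 (1.27% to 13.6%). The interaction had 0 to 4 (0% to 6.36%) and any of the 4 groups 0 to 8 (1.03% to 14.1%). The highest counts were without Combination replicate 1, or replicate 3 for the pooled comparison. The medians then ranged from -0.39 to 0.02 in Combination against ICB and from -0.26 to 0.13 in Combination against Control. The causes of these changes were not tested.

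Title replicate numbers showed no clear pairing of the samples. Deviations of the 18 same-numbered pairs correlated at -0.236 to 0.416 (median 0.0346), and 6 of 12 libraries correlated best with their own number. The names of the deposited columns number some samples otherwise than the titles do, and only the title numbers were checked. With a replicate block the pooled count was 1 (2.89% of all genes) and all other counts 0 (0% to 4.23%). Unknown depth leaves the precision of members near 1 FPKM open to counting error that cannot be computed here.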
